A study of Mus musculus with 3 samples.

Results

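The genes described here encode the enzymes of glycolysis and of the pentose phosphate pathway, with the glucose and lactate carriers at either end and the kinases that switch off pyruvate dehydrogenase. They were chosen by symbol, as 39 named genes of 17 pathway steps, with no rule on their levels. In the deposited gene tables these symbols matched 40 genes of 55536 annotated ones, since Aldoa carried a neighbouring second entry on the same strand. The cells were macrophages from C57BL/6J bone marrow, primary phagocytes grown out of marrow precursors in culture. They received lipid A at 100 ng/ml during 12 h, were washed and rested 12 h, and then received lipid A at 100 ng/ml again during 480 min. Lipid A is the part of bacterial lipopolysaccharide that Toll-like receptor 4 recognises, although the labels' treatment fields call the agent lipoprotein A. Polyadenylated RNA was sequenced in 3 libraries of this 1 group, named replicates 1, 2 and 3. Sex and age were not collected, and the libraries share 1 donor record, so the spread between them may be technical and p-values measure only that spread. No untreated library was analysed here, and no value below is an effect of lipid A.

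Glycolysis splits glucose into pyruvate, with control at hexokinase, phosphofructokinase and pyruvate kinase, and lactate dehydrogenase then turns pyruvate into lactate for export. The pentose phosphate pathway leaves glycolysis at glucose-6-phosphate, makes NADPH in its oxidative branch and returns sugars through its non-oxidative branch. Macrophages activated through Toll-like receptor 4 are known for strong glycolysis, and they use NADPH for the oxidative burst, nitric oxide and glutathione. Many steps can be served by several isoenzymes from separate genes, and pyruvate kinase M (Pkm) makes its M1 and M2 forms from 1 gene by choosing between a pair of mutually exclusive exons.

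These exons are shown first because the Pkm result turns on them. Pkm lies at chr9:59656368-59679375 on the plus strand of mm10. Both coding exons have 167 bases, and the M1-type exon at chr9:59675029-59675195 precedes the M2-type exon at chr9:59675568-59675734. Capitals mark the 64 positions at which they differ, read from the GENCODE M21 transcripts Pkm-201 and Pkm-202, and 61.7% of the positions are alike.
Pkm M2-type exon: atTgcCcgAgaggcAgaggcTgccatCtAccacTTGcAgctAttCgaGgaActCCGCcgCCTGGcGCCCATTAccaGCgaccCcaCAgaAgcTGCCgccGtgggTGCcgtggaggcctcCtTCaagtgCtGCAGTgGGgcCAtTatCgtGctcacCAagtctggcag
Pkm M1-type exon: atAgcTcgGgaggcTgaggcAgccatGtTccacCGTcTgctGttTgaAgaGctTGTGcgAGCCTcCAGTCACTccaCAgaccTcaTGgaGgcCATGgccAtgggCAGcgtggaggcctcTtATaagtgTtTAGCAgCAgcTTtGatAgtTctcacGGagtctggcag

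Promoter windows of 3 carriers are also shown, since these genes stand at the entry and exit of the pathway. All 3 were among the 12 members that differed by 1 log2 unit or more between libraries, as described below. The range was 2.87 log2 units for Slc2a6, 2.61 for Slc16a3 and only 1.21 for Slc2a1. The windows of 300 bases surround the annotated start, come from RefSeq on GRCm38.p6, and are written along the gene's own strand. Capitals mark ACGTG, the core of the hypoxia response element and part of the E-box CACGTG, which was searched on both strands. Slc2a6 is at chr2:27027949-27028248 (minus strand), Slc2a1 at chr4:119108495-119108794 (plus strand) and Slc16a3 at chr11:120948817-120949116 (plus strand).
Slc2a6 promoter: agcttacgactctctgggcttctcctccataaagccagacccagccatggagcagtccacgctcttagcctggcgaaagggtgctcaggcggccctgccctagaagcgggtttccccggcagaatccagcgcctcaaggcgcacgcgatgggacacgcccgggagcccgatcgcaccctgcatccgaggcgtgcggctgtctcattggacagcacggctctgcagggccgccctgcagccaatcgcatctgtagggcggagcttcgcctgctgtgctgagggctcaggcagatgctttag
Slc2a1 promoter: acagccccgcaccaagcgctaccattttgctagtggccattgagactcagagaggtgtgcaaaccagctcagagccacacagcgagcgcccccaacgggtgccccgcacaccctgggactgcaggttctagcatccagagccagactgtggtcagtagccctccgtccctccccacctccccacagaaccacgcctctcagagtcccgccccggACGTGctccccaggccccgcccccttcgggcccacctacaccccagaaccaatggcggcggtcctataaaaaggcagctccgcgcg
Slc16a3 promoter: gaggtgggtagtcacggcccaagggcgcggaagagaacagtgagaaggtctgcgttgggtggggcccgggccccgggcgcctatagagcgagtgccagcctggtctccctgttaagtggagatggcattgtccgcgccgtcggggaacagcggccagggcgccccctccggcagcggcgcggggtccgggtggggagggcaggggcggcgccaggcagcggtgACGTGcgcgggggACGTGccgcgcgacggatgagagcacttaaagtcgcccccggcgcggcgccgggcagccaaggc
The Slc16a3 window held 2 copies, the Slc2a1 window 1 and the Slc2a6 window 0. Of 58 windows that matched 38 member symbols, 39.7% held ACGTG, against 19.6% of all 32851 windows in the RefSeq set. An NF-kB motif, also searched on both strands, was in 8.62% of the member windows and 8.46% of all windows. A match describes the letters of a window and says nothing of binding.

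Levels are given in TPM, a transcript abundance scaled by transcript length and to the same sum in each library, so that genes can be compared. Replicates 1, 2 and 3 held 24596382, 54016971 and 43127749 expected counts. Of the 40 genes, 32 reached 1 TPM in every library, where 42.9% of 22028 protein-coding genes did. At 10 TPM in every library there were 20 members, against 24.1% of protein-coding genes, and at 100 TPM there were 9, against 4.04%. The median member had a mean of 31.1 TPM, and the median of 10350 protein-coding genes that reached 1 TPM in at least 1 library was 15.1 TPM. The members summed to 5182, 2889 and 5256 TPM in replicates 1, 2 and 3, which was 0.518%, 0.289% and 0.526% of all TPM. Replicate 2 thus stood apart, and it also held more mitochondrial messenger RNA (6.86% of counts, against 1.06% and 1.13% in replicates 1 and 3) and less ribosomal RNA (0.232%, against 3.21% and 1.97%). Values are therefore given per library, and the part of these differences in the results was not tested. Fewer cells that express a gene and less of its RNA per cell cannot be told apart in such bulk samples.

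**Figure D1:**
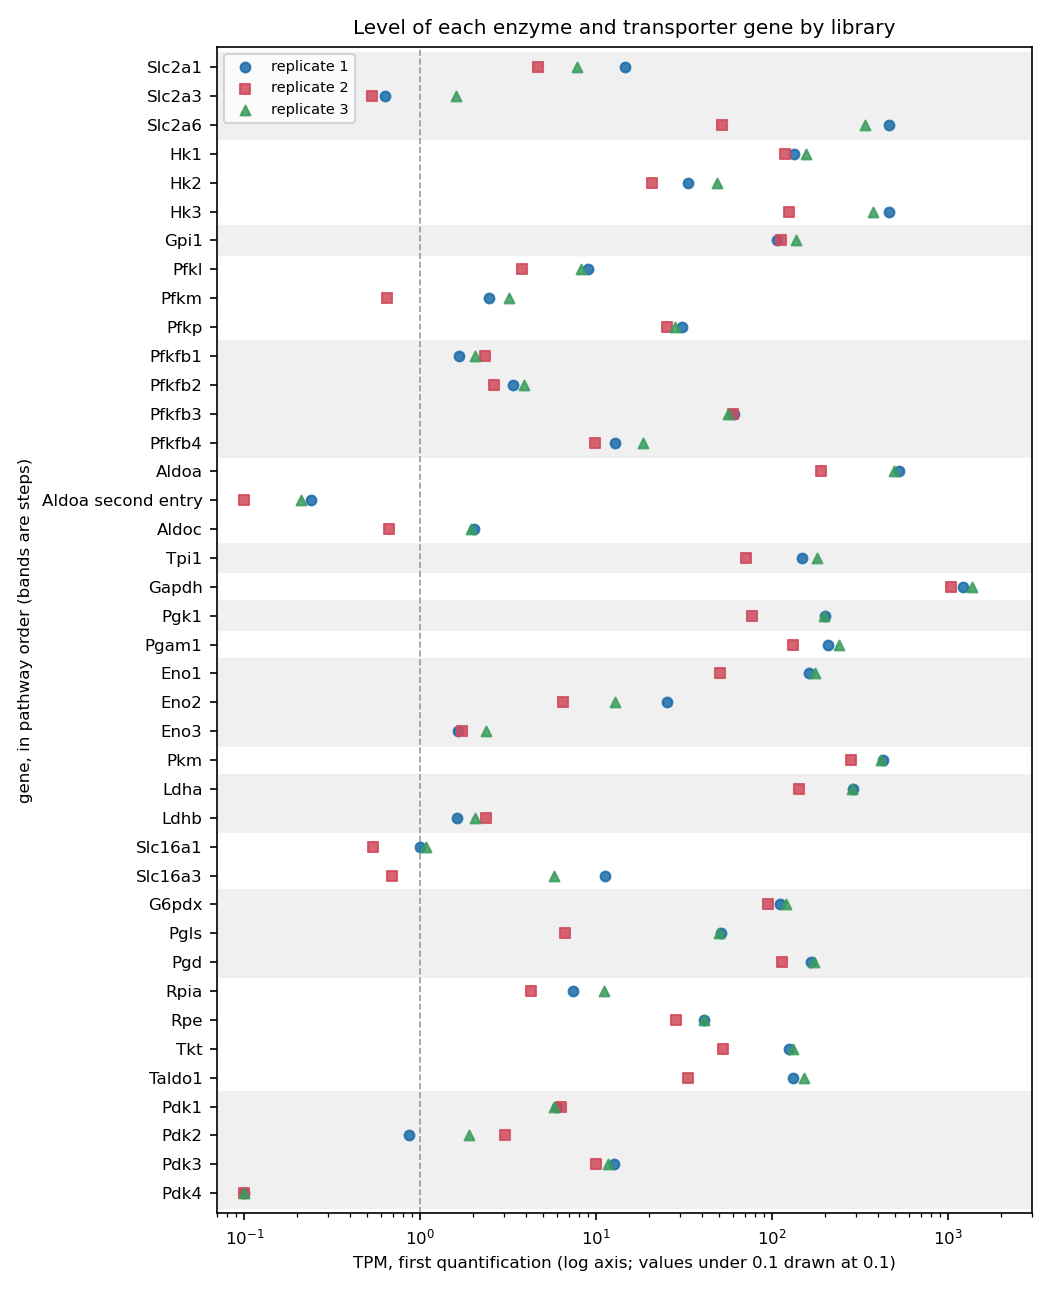
TPM of each of the 40 genes in replicates 1, 2 and 3 on a log axis, in pathway order with shaded bands for steps and a dashed line at 1 TPM. Gapdh was highest in every library, and the replicate 2 squares lie left of the other symbols for Slc2a6, Slc16a3, Pgls and Taldo1.

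Glucose enters through facilitative carriers. Slc2a6 (GLUT6), a carrier found mainly on internal membranes, had 459, 51.8 and 336 TPM in replicates 1, 2 and 3. It varied 8.87-fold between the highest and the lowest library. Slc2a1 (GLUT1), the widespread plasma membrane carrier of glucose, had 14.5, 4.65 and 7.80 TPM. Slc2a3 (GLUT3), a carrier of high affinity best known from neurons, had 0.630, 0.530 and 1.60 TPM. Slc2a6 was above Slc2a1 in all 3 libraries, by 4.61 ± 1.03 log2 units (SD, n = 3), and it held 96.8%, 90.9% and 97.3% of the TPM of the 3 carriers. The sum of their TPM was 474, 57.0 and 346, so replicate 2 had the least, and nearly all of that difference lay in Slc2a6.

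Isoenzyme pairs were compared as log2 ratios of TPM + 0.1 within a library, and a pair was called separated when all 3 ratios had 1 sign and their mean exceeded 3 SD. No p-value was used, because a sign-flip test over 3 libraries cannot fall below 0.25. All 27 pairs within the 9 steps that have isoenzymes kept 1 sign, where 84.6% of all 53556075 pairs of detected genes did. The rule separated 20 of the 27 pairs, where it separated 55.4% of all pairs of detected genes. Pdk4 was not detected, and its pairs with Pdk3, Pdk1 and Pdk2 were all separated. The background holds detected genes only, so neither comparison is strictly like for like. In each of the 9 steps the same member had the most TPM in all 3 libraries of the first quantification. In the second quantification Hk1 led the hexokinases in replicate 2 and Hk3 in the others.

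Hexokinases phosphorylate glucose. Hk3, the form typical of myeloid cells, had 459, 125 and 375 TPM in replicates 1, 2 and 3. Hk1, the form that binds mitochondria and is present in most tissues, had 133, 119 and 156 TPM. Hk2, which is inducible and also binds mitochondria, had 33.3, 20.8 and 48.3 TPM. Both Hk3 and Hk1 were separated from Hk2, by 3.10 ± 0.61 and 2.06 ± 0.41 log2 units (SD, n = 3 each). Hk3 and Hk1 were not separated: the ratios were 1.79, 0.08 and 1.27 log2 units, and in replicate 2 they were nearly equal. Counting protein-coding transcripts only, a choice made after the data were seen, Hk3 had 111 and Hk1 119 TPM in replicate 2, so the order there turned round.

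**Figure D2:**
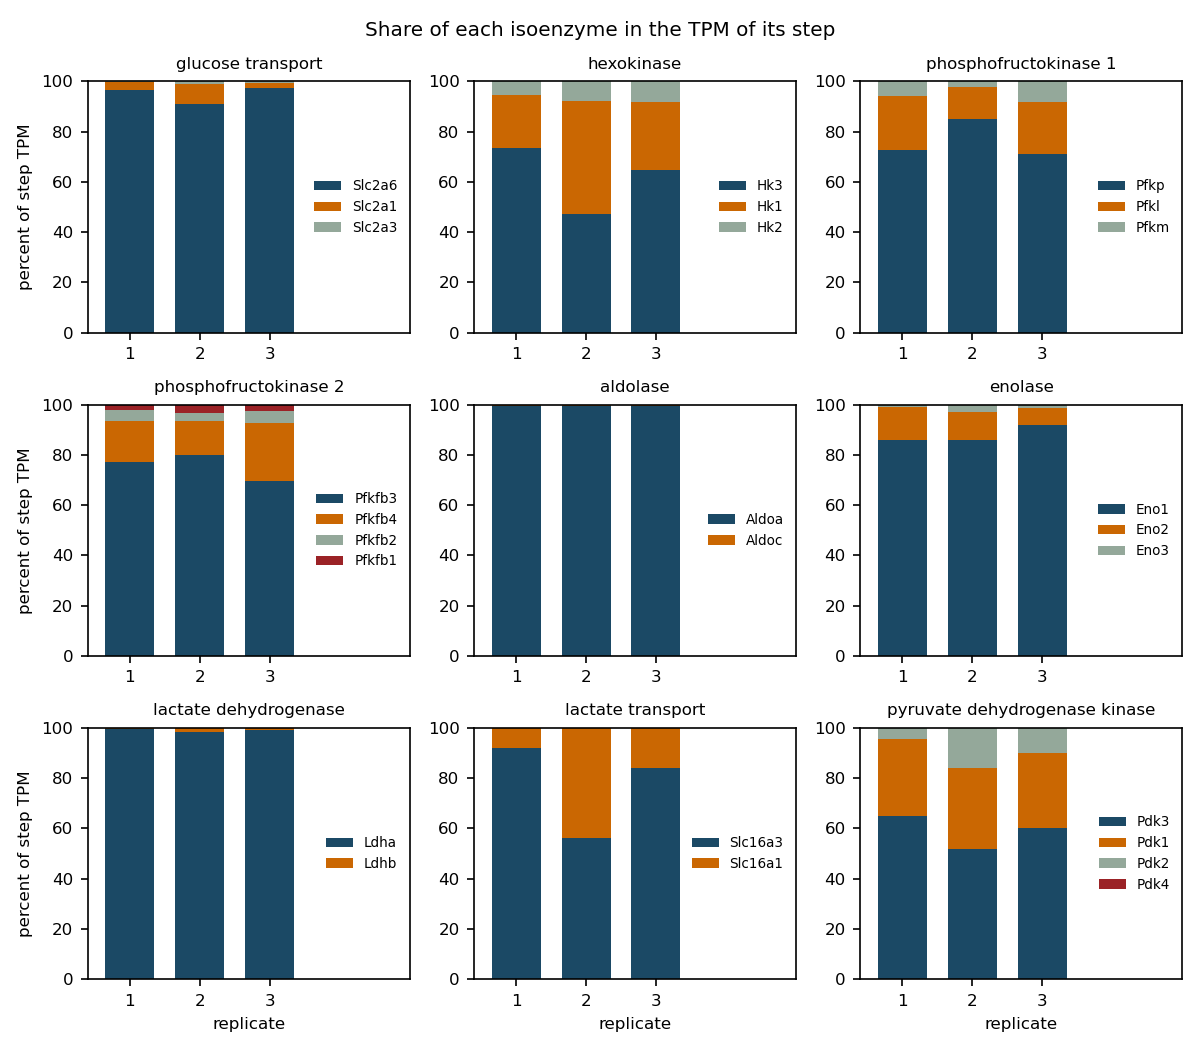
Percent of the TPM of a step from each isoenzyme, for the 9 steps with isoenzymes, with 1 stacked bar per library. The leading isoenzyme took 90.9% or more of glucose transport, aldolase and lactate dehydrogenase TPM in every library, while Hk3 took 73.4%, 47.3% and 64.7% of hexokinase TPM in replicates 1, 2 and 3.

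Phosphofructokinase 1 (PFK-1) commits sugar to glycolysis, and its 3 subunits are named after platelet, liver and muscle. The platelet-type Pfkp led with 30.8, 25.3 and 28.0 TPM. The liver-type Pfkl followed with 8.98, 3.80 and 8.20 TPM, and the muscle-type Pfkm had 2.45, 0.650 and 3.19 TPM. All 3 pairs were separated, and Pfkp held 76.3 ± 7.6% of the TPM of the step (SD, n = 3). The summed level of the step, 42.2, 29.7 and 39.4 TPM, was the lowest of all steps from glucose transport to lactate dehydrogenase in each of the 3 libraries.

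The bifunctional PFKFB enzymes make and remove fructose-2,6-bisphosphate, the main activator of PFK-1. Pfkfb3, the form with the highest kinase over phosphatase activity, had 60.8, 59.6 and 55.8 TPM, a coefficient of variation of 4.40%. In the second quantification it had 43.96, 63.45 and 50.17 TPM, so this steadiness depended on the quantification. Pfkfb4 had 12.7, 9.87 and 18.5 TPM. Pfkfb2, best known from heart, had 3.38, 2.61 and 3.9 TPM, and Pfkfb1, the liver form, had 1.66, 2.33 and 2.05 TPM. Pfkfb3 exceeded Pfkfb4 by 2.14 ± 0.51 log2 units (SD, n = 3), and of the 6 pairs of this step only Pfkfb2 and Pfkfb1 were not separated. The TPM of the step summed to 78.5, 74.5 and 80.3 in the first quantification.

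The middle of glycolysis was carried mostly by single genes at high levels. Glucose-6-phosphate isomerase, Gpi1, had 107, 113 and 136 TPM. Aldoa, the aldolase of muscle and most other tissues, had 525, 190 and 490 TPM, against 2.03, 0.660 and 1.95 TPM for the brain-type Aldoc. In the first quantification their ratio was the steadiest of all 27 pairs, at 7.94 ± 0.03 log2 units (SD, n = 3). Both genes were lowest in replicate 2, and Aldoc rested on only 48, 39 and 126 counts. Aldoc held 0.385%, 0.346% and 0.396% of aldolase TPM in the first quantification. In the second it held 0.369%, 0.364% and 0.569%, so the steadiness depended on the quantification. The second Aldoa entry had 2, 0 and 3 counts and played no part in these values. Triosephosphate isomerase, Tpi1, had 147, 71.4 and 181 TPM.

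Below the triose phosphates, Gapdh, which makes NADH and 1,3-bisphosphoglycerate, had 1208, 1043 and 1367 TPM. Pgk1, the first kinase that returns ATP, had 199, 77.3 and 197 TPM, and phosphoglycerate mutase Pgam1 had 209, 131 and 240 TPM. Replicate 2 was lowest for each of these 3, by little for Gapdh and by more for Pgk1. Among enolases the ubiquitous Eno1 had 162, 50.6 and 175 TPM, the neuronal-type Eno2 had 25.3, 6.43 and 12.7 TPM, and the muscle-type Eno3 had 1.64, 1.72 and 2.36 TPM. Eno1 exceeded Eno2 by 3.13 ± 0.57 log2 units (SD, n = 3) and was separated from both others, whereas Eno2 and Eno3 were not separated.

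Near-identical pseudogenes limit some of these values, since reads shared with a copy were divided by a model. Gapdh had 186 annotated copies at 90% identity or more, and they took 7.24%, 2.07% and 5.98% of the expected counts assigned to Gapdh and its copies together in replicates 1, 2 and 3. Copies of Pgk1 took 6.54%, 6.34% and 6.12%. For the weak Ldhb a single copy took 28.3%, 7.91% and 19.5%. For all other members the copies took less than 3% in every library.

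Gapdh differed little between libraries as a gene in the TPM of the first quantification, whereas the second quantification of the same reads gave 670, 879 and 1102 TPM, lowest in replicate 1. Transcripts annotated as protein coding summed to 1004, 336 and 1015 TPM for Gapdh in replicates 1, 2 and 3 of the first quantification. In the second quantification this sum was 653, 465 and 886 TPM, so that in both the coding sum was lowest in replicate 2. Transcripts that do not code for protein took 16.9%, 67.8% and 25.7% of the gene in the first quantification, and 2.54%, 47.1% and 19.7% in the second. Replicate 2 was highest in both, and its leading Gapdh transcript in the first quantification was Gapdh-206, a retained intron transcript with 38.3% of the gene. Before division by length, Gapdh had 833, 549 and 796 CPM (counts scaled to library size) after TMM scaling, so that replicate 2 was lower in counts as well.

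Other members showed the same split in part. Transcripts that do not code for protein took 26.9%, 61.9% and 32.9% of Gpi1 in the first quantification, and a nonsense-mediated decay transcript, Gpi1-207, led in replicate 2 in both. For Pgd the shares were 4.80%, 41.3% and 3.15% in the first quantification and 9.77%, 38.6% and 23.0% in the second, so replicate 3 depended on the quantification. Tkt differed from these, since a processed transcript, Tkt-209, led in every library and in both quantifications with 66.8%, 61.9% and 68.3% of the gene in the first. Of 24 members with a mean of at least 10 TPM, 5, 8 and 6 had 20% or more of their TPM in such transcripts in replicates 1, 2 and 3. The shares among 6267 protein-coding genes at that level were 20.4%, 26.8% and 19.3%, so the members' counts lay near the background.

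**Figure D3:**
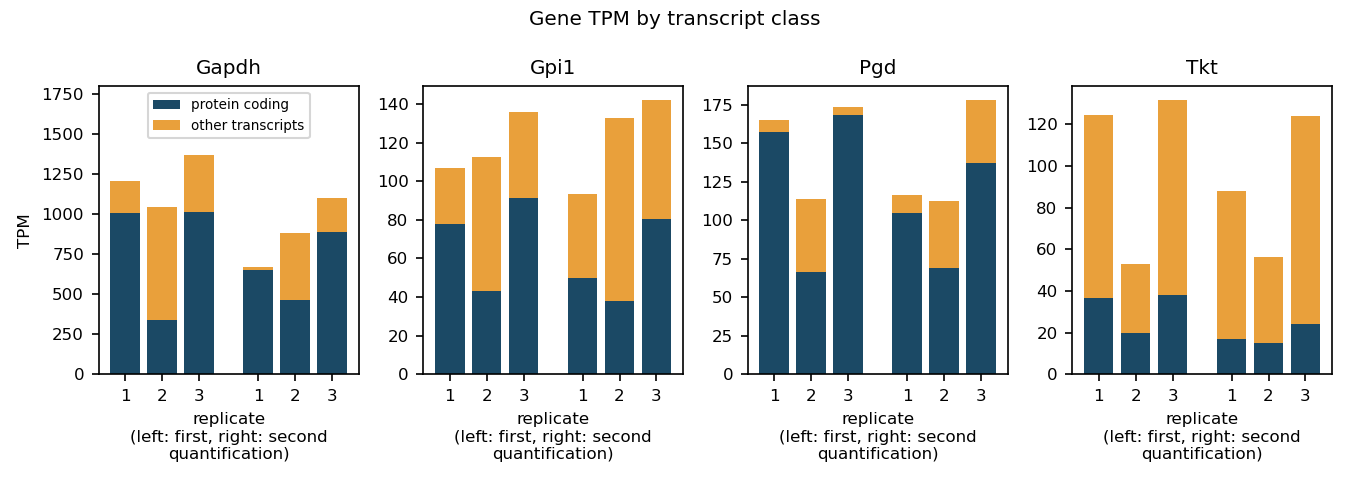
TPM of Gapdh, Gpi1, Pgd and Tkt in replicates 1, 2 and 3, split into protein-coding transcripts (dark) and all other transcripts (light), in the first quantification (left 3 bars) and the second (right 3 bars). Protein-coding Gapdh was lowest in replicate 2 in both quantifications, at 336 and 465 TPM.

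Pyruvate kinase ends glycolysis with the second ATP-yielding step. Pkm had 424, 281 and 417 TPM in replicates 1, 2 and 3, and 11 annotated transcripts, of which 8 carry neither alternative exon. Pkm-201, the full transcript with the M2-type exon, had 318, 105 and 306 TPM in the first quantification. Pkm-202, the full transcript with the M1-type exon, had 91.1, 142 and 97.5 TPM. The M2-type form therefore led in replicates 1 and 3 and the M1-type form in replicate 2.

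Among transcripts with either exon, the M2-type share was 77.5%, 42.4% and 75.7% of TPM in replicates 1, 2 and 3, with a mean of 65.2 ± 19.7% (SD, n = 3). The second quantification gave 74.8%, 35.0% and 74.0%. Both tables put replicate 2 on the other side of an even split, and the difference between quantifications was smaller than that between libraries. Without replicate 2 the mean share in the first quantification was 76.6%. The posterior SD of the count in the first tables was 111 on 11757 counts for Pkm-201 in replicate 1 and 199 on 9609 in replicate 2. This SD covers the assignment of reads within a library under the authors' model, and its part in the difference between libraries was not tested.

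The share does not rest on the exons alone. Pkm-201 has 2432 bases and Pkm-202 has 2041, because Pkm-201 is annotated with 205 more bases at its 5′ end and 186 more at its 3′ end. Reads at these ends count for the transcript that holds them, and the tables give no reads over exon junctions, so the choice of exon and the choice of ends cannot be told apart. The retained intron transcript Pkm-205 took 2.61%, 10.96% and 1.88% of the gene and was highest in replicate 2. Among 8 known splicing regulators of this exon pair, 7 reached 1 TPM in every library. Hnrnpa2b1 had 374, 459 and 434 TPM, Hnrnpa1 had 140, 157 and 169 TPM, Ptbp3 had 87.1, 116 and 83.7 TPM, and Ptbp1, the best known repressor of the M1-type exon, had 71.8, 83.3 and 75.8 TPM. The lowest were Ptbp2 with 5.50, 8.56 and 4.83 TPM and Nek2 with 0.150, 0.340 and 0.0800 TPM. The part of these regulators in the Pkm share was not tested.

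**Figure D4:**
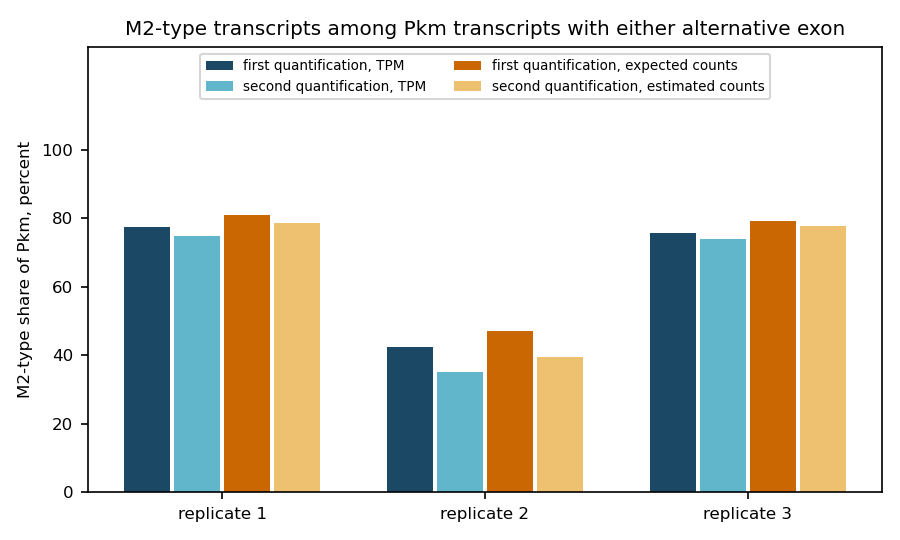
M2-type share of Pkm in percent for replicates 1, 2 and 3, as TPM and as counts in both quantifications. The measures lie between 74.0% and 80.9% in replicates 1 and 3 and between 35.0% and 47.2% in replicate 2.

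Lactate dehydrogenase regenerates NAD+ from pyruvate. Ldha, the form that favours lactate production, had 288, 142 and 285 TPM, against 1.61, 2.35 and 2.04 TPM for the heart-type Ldhb. Ldha exceeded Ldhb by 6.77 ± 0.81 log2 units (SD, n = 3). The lactate carriers among the members had less TPM than Ldha in every library, which does not measure export. Slc16a3 (MCT4), the exporter of glycolytic cells, had 11.3, 0.690 and 5.72 TPM, with 60 counts in replicate 2. Its ratio of highest to lowest TPM, 16.3-fold, was the largest of any detected member. On the scale of log2(TPM + 1) used below, Slc2a6 had the wider range, at 2.87 against 2.61. Slc16a1 (MCT1) had 0.990, 0.540 and 1.08 TPM, and the pair was not separated. Slc16a7 (MCT2), which is outside the member list, had 16.8, 19.7 and 25.2 TPM and was above Slc16a3 and Slc16a1 in every library. Bsg (basigin), the chaperone of these carriers, had 208, 169 and 238 TPM.

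In the oxidative pentose phosphate branch, G6pdx, which takes the first and rate-limiting step to NADPH, had 111, 94.2 and 120 TPM. Pgls, the lactonase, had 51.4, 6.61 and 49.9 TPM, and Pgd, which makes the second NADPH, had 165, 114 and 174 TPM. The lactonase thus dropped far more in replicate 2 than the enzymes on either side of it. In the non-oxidative branch Taldo1 (transaldolase) had 131, 33.4 and 151 TPM and Tkt (transketolase) had 124, 52.7 and 132 TPM. Rpe (ribulose-phosphate epimerase) had 40.8, 28.5 and 41.0 TPM and Rpia (ribose-5-phosphate isomerase) had 7.42, 4.27 and 11.1 TPM. All 4 were lowest in replicate 2, and Rpia was the weakest of the 7 pentose phosphate members in every library.

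All 10 listed users of NADPH reached 1 TPM in every library. Cyba, a subunit of the phagocyte NADPH oxidase, had 1669, 341 and 1783 TPM, and its partner Cybb had 578, 425 and 558 TPM. Ncf1 had 403, 336 and 462 TPM, and the haem-degrading Hmox1 had 232, 266 and 332 TPM. The lowest were Gsr (glutathione reductase) with 32.4, 22.3 and 24.2 TPM and Fasn (fatty acid synthase) with 7.02, 9.80 and 11.2 TPM. Cyba was low in replicate 2, whereas Hmox1 and Fasn were lowest in replicate 1.

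Pyruvate dehydrogenase kinases (PDK) hold back the entry of pyruvate into the citric acid cycle. Pdk3 had 12.6, 9.99 and 11.7 TPM, Pdk1 had 5.96, 6.31 and 5.79 TPM and Pdk2 had 0.860, 3.04 and 1.90 TPM. Pdk4, best known as a fasting-induced kinase, had 0, 2 and 1 counts, and 3 counts in replicate 1 would have been 0.143 TPM. Pdk3 exceeded Pdk1 by 0.91 ± 0.22 log2 units (SD, n = 3), which was separated in TPM, but in CPM Pdk1 was above Pdk3 in replicate 3. In the first quantification the 4 kinases summed to 19.4 TPM in each library. In the second, Pdk1, Pdk2 and Pdk3 were each lowest in replicate 1, so the equal sum depended on the quantification. Pdk2 was highest in replicate 2, unlike most members. Of Pdk2, 0%, 42.4% and 11.6% lay in transcripts that do not code for protein in replicates 1, 2 and 3 of the first quantification. Its coding sum there was 0.86, 1.75 and 1.68 TPM, nearly equal in replicates 2 and 3. For Pdk1 such transcripts took 51.3%, 72.8% and 29.5%. All 10 listed genes of pyruvate entry reached 1 TPM in every library, led by the carrier subunit Mpc1 with 172, 160 and 184 TPM. Dld had 61.5, 54.0 and 52.4 TPM, Pdhb 44.9, 42.0 and 64.4 TPM and Pdha1 36.6, 39.3 and 46.9 TPM, and the phosphatase genes Pdp2 and Pdpr were lowest with means of 4.33 and 2.87 TPM.

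Tissue-restricted isoenzymes were nearly absent. None of 12 such genes reached 1 TPM in every library, and 8 had 0 counts in all 3, among them Pklr, the pyruvate kinase of liver and red cells. The highest was the muscle-type Pgam2 with 1.11, 0.190 and 0.230 TPM. Among 21 genes of side branches and gluconeogenic bypasses, 15 reached 1 TPM in every library. Gyg, which primes glycogen, had 86.7, 80.04 and 114 TPM, Aldh3b1 51.1, 23.2 and 57.1 TPM, Pgm1 25.8, 15.8 and 28.4 TPM and Gpd2, the mitochondrial glycerol phosphate shuttle enzyme, 23.5, 31.1 and 20.6 TPM. The gluconeogenic Pck1 and Fbp2 had 0 counts. Of 14 known regulators of glycolytic genes, 10 reached 1 TPM in every library. Txnip, a brake on glucose uptake, had 80.9, 101.5 and 120.9 TPM, Mlx had 44.6, 40.2 and 52.4 TPM, Hif1a had 36.8, 37.1 and 26.7 TPM and Egln2 had 34.5, 13.7 and 35.4 TPM, while Mlxipl and Ppargc1a were listed at 0.

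The cells carried the markers of their label. All 10 macrophage markers reached 1 TPM in every library and summed to 18111, 16174 and 19822 TPM, led by Lyz2 and Cd68. Erythroid markers summed to 0, 0 and 0.1 TPM and muscle markers to 0.25, 0.11 and 0.26 TPM. Of 8 neutrophil markers only Mmp8 reached 1 TPM in every library, and the sum was 4.76, 6.69 and 3.38 TPM. Of 8 T and B cell markers only Cd4 did, with 20.0, 113 and 33.6 TPM, while Cd3e had 0, 0.190 and 0 TPM. Of 7 fibroblast and endothelial markers only Kdr did, with 35.2, 7.90 and 23.8 TPM, and Cdh5 had 0.360, 5.82 and 0.450 TPM. Cd4 and Cdh5 were highest in replicate 2, and their part in the values of the enzymes was not tested.

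To compare libraries, each gene's log2(TPM + 1) was set against its mean over the 3 libraries, and the median deviation of detected protein-coding genes, which was 0.05, -0.20 and 0.14 in replicates 1, 2 and 3, was subtracted. Of 38 detected members, 12 differed by 1 log2 unit or more between the highest and the lowest library, where 27.1% of 10350 detected genes did. Replicate 2 was the lowest library for 25 of 38 members, against 42.2% of detected genes, and for 11 of 38 with a range of at least 1, against 13.9%. It was the highest for 7 of 38, against 41.9%. Without replicate 2 only Eno2 kept a range of 1 log2 unit or more, where 2.3% of detected genes did.

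The lowest deviations in replicate 2 were -1.73 for Slc2a6, -1.64 for Pgls, -1.42 for Slc16a3 and -1.16 for Taldo1. The deviation of replicate 2 was -0.95 for Hk3, -0.94 for Eno1 and -0.74 for Aldoa. At the other end stood Pdk2 at 0.73, Ldhb at 0.37 and Pfkfb1 at 0.35, all weak genes. The range between libraries was 0.03 log2 units for G6pdx, 0.09 for Gapdh and 0.14 for Hk1 at the level of the gene. Among hexokinases the range was 0.84 for Hk2 and 1.62 for Hk3, and in the oxidative branch it was 0.28 for Pgd and 2.53 for Pgls.

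GC content of the leading transcript moved with these deviations. Across the 38 members, Pearson's r between GC content and the deviation in replicate 2 was -0.52 and Spearman's rho -0.52. Across 10339 detected genes r was -0.39 and rho -0.43. Both are descriptions across genes that share the same libraries. Among the 2585 detected genes with the most GC, 54.8% or more, the 13 members had a median deviation of -0.70 in replicate 2, against -0.35 for all of them. Pgls, with 65.4% GC the richest member, and Slc2a6 and Slc16a3, with 58.7% each, were among the lowest. Hk1 with 56.4% stood at 0.02 and the weak Pdk2 with 56.9% at 0.73. Taldo1 stood at -1.16 with 53.7%. Length of the leading transcript was also related to the deviation in replicate 2, with Spearman's rho 0.22 across the members and 0.23 across detected genes. The part of GC content and of length in the members' values was not tested.

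**Figure D5:**
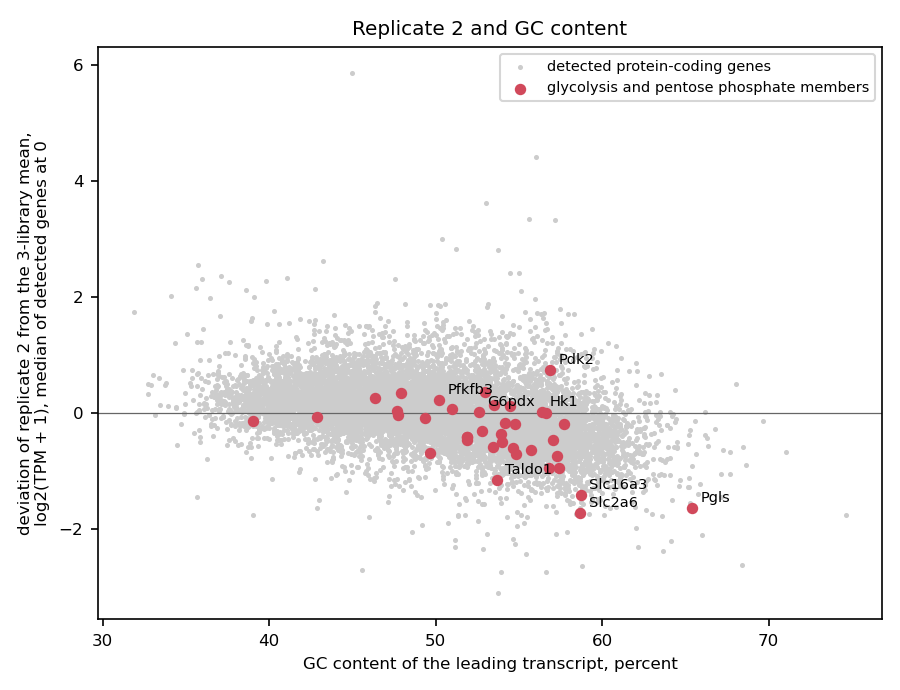
Deviation of replicate 2 from the 3-library mean in log2(TPM + 1), with the median of detected genes at 0, against the GC content of the leading transcript, for 38 members (red) and 10350 detected protein-coding genes (grey; the 10339 with a transcript sequence are drawn). Pgls, the member with the most GC, lies at -1.64 and Rpe, the member with the least, at -0.14, while Pdk2 at 56.9% GC is the highest member at 0.73.

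Counts were then tested for more variance between libraries than genes of like abundance had, with edgeR's quasi-likelihood fit and a one-sided F test. None of 38 members passed an adjusted p of 0.05, and none of 11932 genes did (0%). The test had 3 libraries and a prior of 4.51 degrees of freedom. Even Slc16a3, 16.3-fold apart in TPM, had an F ratio of 11.2 and an unadjusted p of 0.0179 in this F test. The absence of calls therefore does not show that the members were alike between libraries. At an unadjusted p under 0.05 there were 3 members, Slc2a6, Slc16a3 and Pgls, against 4.22% of all genes, and edgeR's adjusted p was 0.933 for each of them. A chi-square test, which allows for counting error only, called 37 of 38 members and 87.9% of all genes, and the exception was Pfkfb2 (adjusted p = 0.123). The differences between libraries thus exceeded counting error for nearly all members and for most other genes.

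Between the quantifications, second over first, limma on log2(TPM + 1) found 0 of 37 members with an adjusted p under 0.05 and a difference of at least 1 log2 unit, against 1.66% of 10203 genes. At an unadjusted p under 0.05 of any size there were 4 of 37 members, against 6.08% of genes. All genes shifted by a median of -0.42, 0.05 and -0.09 log2 units in replicates 1, 2 and 3, so values of replicate 1 were mostly lower in the second tables. Hk2 was the 1 member at an adjusted p under 0.05 of any size, against 3.21% of genes. Its difference was -0.83 ± 0.18 log2 units (SE, equal for all genes, limma adjusted p = 0.000190). With each library's median difference subtracted, a choice made after the data were seen, it was -0.68 log2 units (limma adjusted p = 0.0197). Transcripts that do not code for protein took 36.0%, 38.9% and 41.2% of Hk2 in the first quantification and 0%, 0% and 0.0504% in the second. Of 24 members at a mean of 10 TPM, 18 had the same leading transcript in both quantifications in every library, against 79.2% of 6267 genes. The leading transcript differed between the quantifications in at least 1 library for Hk1, Pfkp, Pfkfb3, Pfkfb4, Gapdh and Eno2, so their isoform values are less certain than their gene values. Within the first quantification, 17 of the 24 kept 1 leading transcript in all 3 libraries, against 72.6% of genes. It changed between libraries for Hk1, Pfkp, Pfkfb3, Gpi1, Gapdh, Eno2 and Pkm.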

How the data were processed

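The deposited files hold 2 quantifications of each of the 3 polyadenylated RNA libraries, made on mm10 with GENCODE M21 transcripts, as stated in the notes deposited beside them. The first has the column layout of RSEM and gives genes and transcripts, and the second has that of kallisto and gives transcripts. Tool names, the aligner and the strandedness were not given in the sources used here. Per the file headers, the first tables hold expected counts and the second tables estimated counts. Counts of these kinds divide reads shared by several transcripts by a model. Per the file headers, both hold TPM, a unit that is scaled by effective length and to a fixed sum. Per the file headers, the first tables also hold FPKM and the percent of a gene's TPM in each transcript.

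The members and lists were chosen with earlier results of these data known. Gene names came from the second tables and positions from M21. Aldoa pairs used the entry with reads. The second tables were summed to genes. Pairs used a pseudocount of 0.1 and other log values 1. Detected means 1 TPM or more in at least 1 library. Expected counts were rounded for edgeR 4.0.16 (TMM scaling, filterByExpr), with Benjamini-Hochberg adjustment over all genes tested. Quantifications were compared with limma 3.58.1 over genes that averaged at least 1 TPM in either table, and its standard error came out equal for all genes. Both tests were checked on simulated data. Entries without an annotated gene were left out, at 0.0875%, 0.0464% and 0.0636% of the counts in replicates 1, 2 and 3. Pseudogene copies were found with blastn 2.17.0 at 90% identity or more over at least 50% of the pseudogene. Limits from 3 counts cover counting error only. Genes named are all members, up to 4 highest and 2 lowest of each other list, and the highest 2 of each marker list. A few are summarised.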

Additional observations from a re-analysis of the deposited data

How the results depend on the processing

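Alternatives were other units, quantifications, pseudocounts, filters, scalings and the omission of each replicate, and protein-coding transcripts only and a median-centred comparison of quantifications were added after the data were seen. No paired analysis was possible because the 3 libraries form 1 group. The count of members at 1 TPM stayed between 32 and 36. Separated pairs numbered between 15 (second quantification) and 24 (without replicate 2) of 27, and no pair's mean ratio changed sign. In the main setting 20 of 27 were separated, against 55.4% of all pairs of detected genes. That background was not computed for the other settings, and 15 of 27 lies near the main one. The steps led by 1 isoenzyme were 7 of 9 in CPM, and 8 of 9 in the second quantification and in protein-coding transcripts, where Hk1 led Hk3 in replicate 2. The mean M2-type share of Pkm lay between 59.0% and 76.6% when 1 replicate was left out. The members with a range of 1 log2 unit or more numbered 12, against 27.1% of detected genes. They numbered 8 without replicate 1 (21.1% of detected genes), 1 without replicate 2 (2.3%) and 11 without replicate 3 (20.8%). Without centring there were 18 (30.9%). Members lowest in replicate 2 numbered 25 to 31 over all settings, where the share of detected genes moved between 41.8% and 58.5%. There were 31 both in TMM-scaled CPM, against 41.9% of detected genes, and without centring, against 58.5%. Excess variance called 0 members in every edgeR setting (DESeq2 size factors, no filter, second quantification, each replicate left out) and 37 by the chi-square test; over all genes it called 0, but 64 with no filter, 7 to 20 with a replicate left out and 10491 by the chi-square test. Between quantifications 0 members were called in any setting, and 169 genes, or 258 with a pseudocount of 0.1, 60 at a mean of 10 TPM and 85 with the median subtracted. With 3 libraries, and replicate 2 apart in mitochondrial and ribosomal RNA, small differences between members cannot be resolved. The causes were not tested.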
